A study of Sus scrofa with 32 samples.

Results

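Iron in a cell is taken up, stored, released and sensed by a small set of proteins, and the testis transcripts of 10 such genes were followed here across 32 male pigs. The list held the ferritin genes FTL, FTH1 and FTMT, the uptake and transport genes TFRC, SLC11A2 and SLC39A14, the exporter SLC40A1, the ferritin receptor NCOA4, and the iron regulatory proteins ACO1 and IREB2. A gene entered when its symbol matched an Ensembl identifier in the count files. Of the 10 genes, 7 had such an identifier among the 25322 in each file, and 5 had counts and passed the filter on low counts: FTL (ENSSSCG00000003153), FTMT (ENSSSCG00000014231), TFRC (ENSSSCG00000011848), NCOA4 (ENSSSCG00000010399) and ACO1 (ENSSSCG00000023807). SLC40A1 and IREB2 were listed at 0 in all 32 libraries, as were 4669 of the 25322 identifiers. FTH1, SLC11A2 and SLC39A14 were not analysed here.

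The pigs were crosses of Danish Duroc with Landrace/Yorkshire, slaughtered at about 100 kg. They ate a control diet or one with 15% chicory for 3 days before slaughter, and the labels class them as High AS or Low AS, where AS stands for androstenone and skatole, the compounds behind boar taint. Of the High AS pigs 10 ate the control diet and 7 ate chicory, the Low AS pigs were 7 per diet, and 1 further pig fed chicory had no AS group. Androstenone ran from 0.67 to 7.77 mg/kg in High AS pigs and from 0 to 1.07 mg/kg in Low AS pigs, so the groups overlapped. The series title sets these libraries in a search for expression differences linked to androstenone. Ages are not given in the sources used here.

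Ferritin is a hollow shell of heavy and light chains that holds iron as a mineral. The heavy chain oxidizes iron as it enters and the light chain, from FTL, helps the mineral core form, while FTMT encodes a separate ferritin of the mitochondrion. TFRC brings iron-loaded transferrin into the cell, and NCOA4 carries ferritin to the lysosome so that its iron is freed. ACO1, the cytosolic aconitase that is also iron regulatory protein 1, binds elements in the messengers of FTL and TFRC when iron is scarce. In the testis, Leydig cells make androstenone and testosterone with iron-bearing cytochrome P450 enzymes, and germ cells need iron for mitochondria and division.

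Libraries held 1855174 to 20349500 counts in genes (median 4061083). Library names divided them into 8 numbered libraries with 10585625 counts or more and 24 plain libraries with 5993637 or fewer. The numbered set held 6 High AS and 2 Low AS pigs, so it was a term in each main fit. The Leydig cell hormone gene INSL3 and PRM1, the protamine gene of elongating spermatids, had counts in every library, at 67.8 to 2626 and 673.6 to 26120 CPM (read counts scaled to a common library total). A pair of libraries stood apart. In Low AS chicory replicate 1 the 10 elongating spermatid markers summed to 3157 CPM, against at least 13663 in each other pig, and KIT, a spermatogonial gene, had 67.6 CPM against at most 23.6 elsewhere. In High AS control replicate 3 the plasma protein genes ALB, TF and CP had 1731, 245 and 41.5 CPM, against at most 65.6, 7.90 and 3.26 elsewhere.

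FTL had 1957 to 14220 counts in a library. Its level was lowest 809, median 1044 and highest 1554 CPM in High AS control pigs, 481, 891 and 1782.5 CPM in High AS chicory pigs, 456, 914 and 1586 CPM in Low AS control pigs, and 613, 1105 and 1580.5 CPM in Low AS chicory pigs. All 4 groups overlapped, and the spread within each was wider than the distance between their medians. Over all 32 pigs FTL was 1040 ± 357 CPM (SD, n = 32), with 867 ± 366 CPM in numbered libraries (n = 8) and 1098 ± 343 CPM in plain ones (n = 24). Ferritin chains have many processed pseudogenes in mammals and reads with several alignments were not counted, so the level of FTL itself is uncertain.

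FTMT, the mitochondrial ferritin, varied more between pigs than between groups. It had a median of 148.8 CPM in High AS control pigs (65.6 to 244), 140.6 CPM in High AS chicory pigs (97.0 to 198), 154 CPM in Low AS control pigs (80.7 to 244) and 106 CPM in Low AS chicory pigs (40.2 to 165.5). Its lowest value, 40.2 CPM, was in the pig with the fewest spermatid transcripts.

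NCOA4, which hands ferritin to the lysosome, ranged from 42.5 to 118 CPM over all 32 pigs. Medians were 70.0 CPM in High AS control pigs (56.2 to 111), 65.3 CPM in High AS chicory pigs (46.0 to 88.6), 64.5 CPM in Low AS control pigs (42.5 to 118) and 72.1 CPM in Low AS chicory pigs (58.9 to 88.2). TFRC, the transferrin receptor, had 20 to 355 counts in a library and was the least deeply counted member. Its medians were 15.9 CPM in High AS control pigs (4.40 to 29.3), 10.02 CPM in High AS chicory pigs (5.85 to 21.5), 9.55 CPM in Low AS control pigs (6.27 to 22.5) and 12.5 CPM in Low AS chicory pigs (8.25 to 25.2). The lowest TFRC value, 4.40 CPM, was in High AS control replicate 3.

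ACO1, the aconitase that doubles as an iron sensor, had medians of 64.6 CPM in High AS control pigs (48.9 to 113), 71.4 CPM in High AS chicory pigs (42.2 to 97.7), 65.7 CPM in Low AS control pigs (41.8 to 100.3) and 80.0 CPM in Low AS chicory pigs (44.6 to 99.3). For each of the 5 members the 4 groups overlapped. CPM takes no account of gene length, so levels are compared between pigs and not between genes.

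**Figure D1:**
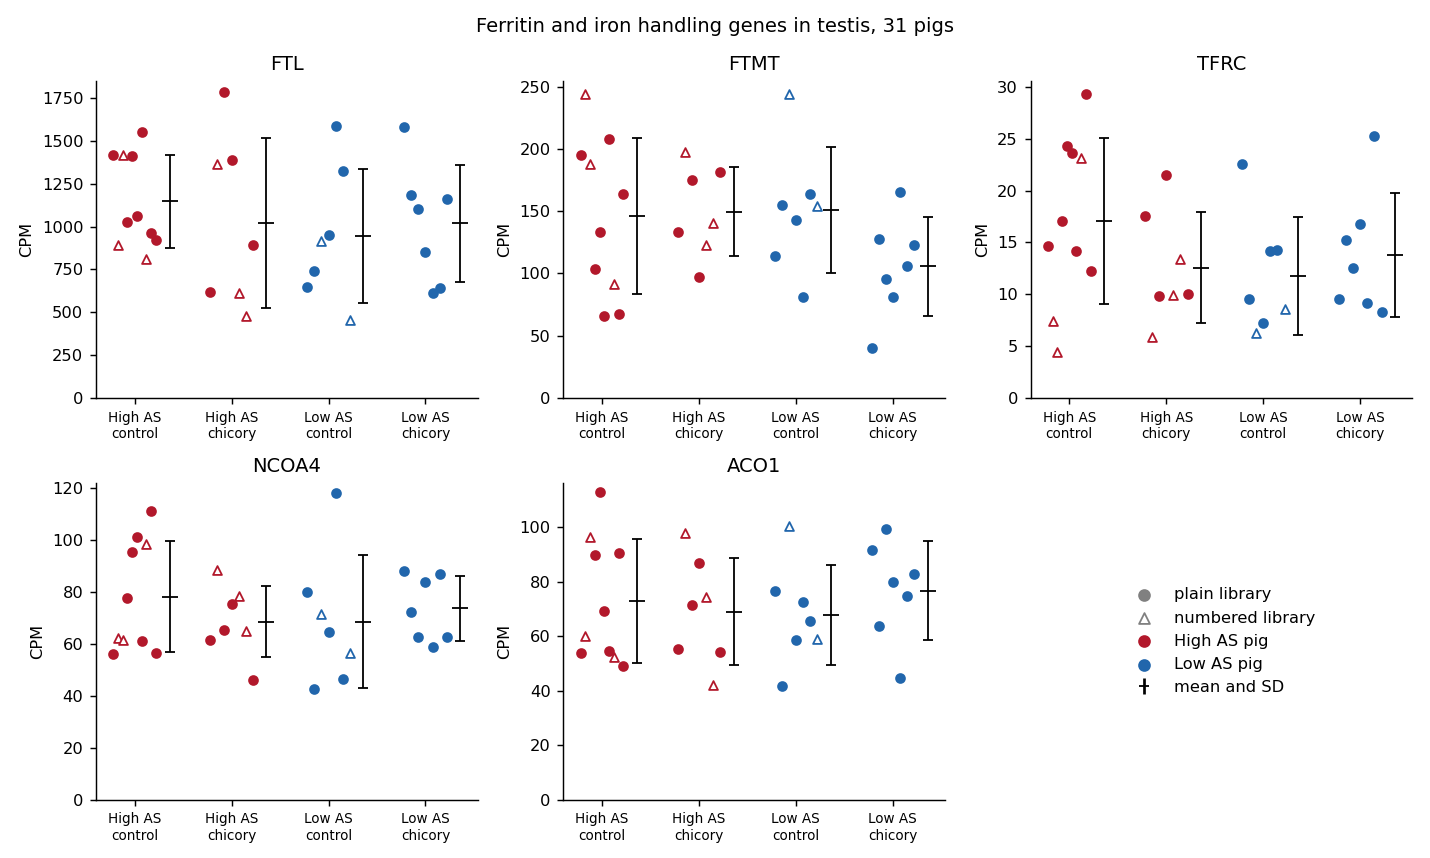
Level of each of the 5 counted members (y axis, CPM, from 0) in 31 pigs by group (x axis). Filled circles are plain libraries, open triangles are numbered libraries, and black bars give the mean and SD of a group; the groups overlap for all 5 genes, with FTL between 456 and 1782.5 CPM.

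The first question was whether iron genes differed between pigs of high and low boar taint. None of the 5 members passed in edgeR's quasi-likelihood test with diet and library set as terms, and of 13025 genes tested 0 passed an adjusted p of 0.05 (0%), with 300 at an unadjusted p under 0.05 and 0 called by DESeq2. The level of FTL was 1094 ± 371 CPM across 17 High AS pigs (SD) and 982 ± 356 CPM across 14 Low AS pigs, a log2 difference of 0.24 (SE 0.18, edgeR adjusted p = 0.988, 95% interval -0.12 to 0.59). TFRC had the widest difference of the 5, 0.38 (SE 0.22), with 15.2 ± 7.19 CPM in High AS and 12.8 ± 5.69 CPM in Low AS pigs. FTMT had 0.13 (SE 0.18), NCOA4 0.061 (SE 0.14) and ACO1 -0.026 (SE 0.15). Within the plain set the FTL difference was 0.17 (SE 0.20), and within the numbered set 0.60 (SE 0.46). By the lane in the library names, 4 of the numbered libraries, all of High AS pigs, were on lane 7 and all others on lane 6, so within the numbered set lane and AS cannot be fully told apart. With the 27 lane 6 pigs alone the FTL difference was 0.14 (SE 0.18) and that of TFRC 0.49 (SE 0.21, edgeR adjusted p = 0.950). INSL3 differed by 0.42 (SE 0.30, adjusted p = 0.988) and the steroid enzyme gene CYP17A1 by 0.61 (SE 0.29, adjusted p = 0.988) in the same fit. With INSL3 and PRM1 as covariates the FTL difference was 0.032 (SE 0.14).

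Other genes of the iron pathway gave no call between the AS groups either: 0 of 25 tested, with a median log2 difference of -0.018 against 0.0067 over all genes. STEAP3, the reductase that turns ferric iron to ferrous iron in the endosome, had 0.53 (SE 0.28). FLVCR2, a relative of the haem exporter FLVCR1, had 0.23 (SE 0.16). FBXL5, the iron-binding ligase subunit that marks IREB2 for degradation, had -0.20 (SE 0.14), and GLRX5, a mitochondrial glutaredoxin of iron-sulfur cluster assembly, had -0.19 (SE 0.18).

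Against the measured androstenone of each pig, FTL was the member with the steepest slope, and it did not pass the threshold. The slope was 0.22 log2 units of FTL per doubling of androstenone plus 0.5 mg/kg (SE 0.09, unadjusted p = 0.0161, edgeR adjusted p = 0.852), where 3 of 13199 genes (0.0227%) passed. FTMT had 0.093 (SE 0.09), TFRC -0.081 (SE 0.12), NCOA4 -0.012 (SE 0.07) and ACO1 -0.019 (SE 0.08). The pig with the highest androstenone, 7.77 mg/kg, had 920 CPM of FTL, and the pig with 5.9 mg/kg had 1782.5 CPM, the highest of all. Within the plain set the FTL slope was 0.15 (SE 0.09), within the numbered set 0.45 (SE 0.17), in the lane 6 libraries 0.15 (SE 0.09), and with INSL3 and PRM1 in the model 0.13 (SE 0.07).

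The other iron genes gave 0 calls among 25 against androstenone, with a median slope of 0.00058 against -0.0066 over all genes. FLVCR2 had 0.19 (SE 0.08) and STEAP3 0.29 (SE 0.14). FBXL5 had -0.14 (SE 0.07), and all 3 had an edgeR adjusted p of 0.852.

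No member passed between the diets. FTL was 1020 ± 409 CPM on chicory (n = 14) and 1063 ± 332 CPM on the control diet (n = 17), a log2 difference of -0.066 (SE 0.18, edgeR adjusted p = 1.000), where 1 of 13025 genes (0.00768%) passed. FTMT had -0.17 (SE 0.18), TFRC -0.15 (SE 0.21), NCOA4 -0.050 (SE 0.14) and ACO1 0.039 (SE 0.15). Of the other iron genes 0 of 25 passed, with a median of 0.025 against 0.0055 over all genes. BMP6, an inducer of the iron hormone hepcidin, had 0.33 (SE 0.24), the cluster scaffold ISCU 0.14 (SE 0.12), the cysteine desulfurase NFS1 -0.23 (SE 0.14) and transferrin, TF, -1.04 (SE 0.78). With High AS control replicate 3 left out, TF had -0.18 (SE 0.29).

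The AS difference on chicory minus that on the control diet was also within error for each member, with 0 of 13025 genes called (0%), 473 at an unadjusted p under 0.05 and 0 called by DESeq2. It was -0.18 (SE 0.36) for FTL, 0.39 (SE 0.37) for FTMT, -0.42 (SE 0.44) for TFRC, -0.32 (SE 0.28) for NCOA4 and -0.32 (SE 0.31) for ACO1, all with an edgeR adjusted p of 0.951 or more. Within the control diet FTL differed between AS groups by 0.31 (SE 0.24, 0% of genes called, 165 at an unadjusted p under 0.05), and within chicory by 0.14 (SE 0.28, 0% of genes called, 810 at an unadjusted p under 0.05), and DESeq2 called 0 in both. The other iron genes gave 0 calls of 25 in all 3 of these comparisons. For the interaction their median was -0.085 against -0.022 over all genes, with 0.26 (SE 0.22) for the haem oxygenase HMOX2, 0.23 (SE 0.24) for the cluster assembly factor CIAPIN1, -0.70 (SE 0.27) for the hepcidin pathway receptor NEO1 and -3.32 (SE 1.38) for TF. Within the control diet their median was 0.035 against 0.013, with 0.36 (SE 0.18) for NEO1, 1.88 (SE 0.96) for TF, -0.17 (SE 0.16) for CIAPIN1 and -0.16 (SE 0.24) for GLRX5. Within chicory it was -0.11 against -0.010, with 0.25 (SE 0.17) for HMOX2, 0.29 (SE 0.25) for FLVCR2, -0.45 (SE 0.21) for FBXL5 and -0.33 (SE 0.20) for NEO1. TF had 245 CPM in High AS control replicate 3, and without that pig its interaction was -0.30 (SE 0.59) and its difference within the control diet 0.094 (SE 0.39).

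**Figure D2:**
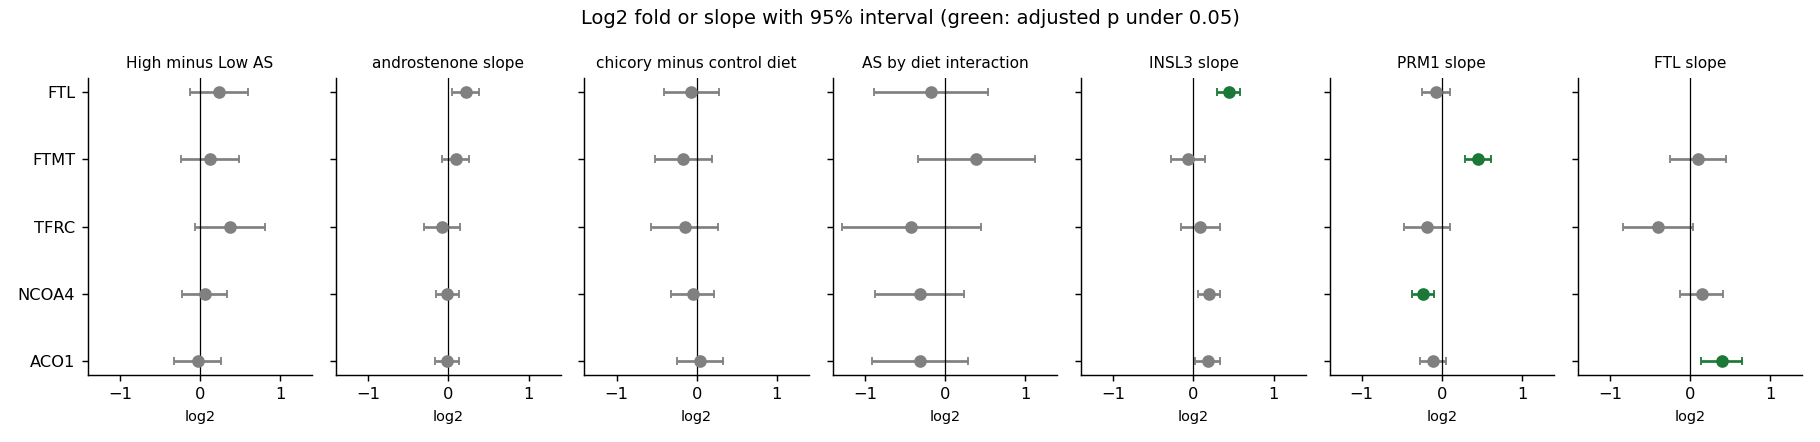
Log2 difference or slope (x axis) of the 5 members (y axis) in 7 comparisons, with 95% intervals; green points have an adjusted p under 0.05. Called were FTL for INSL3 (0.44), FTMT (0.45) and NCOA4 (-0.23) for PRM1, and ACO1 (0.39) for FTL. Of all genes, 2.35% were called for INSL3, 43.9% for PRM1 and 15% for FTL. FTL has no value against itself.

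The next question was how the members follow the Leydig cell content of the tissue, read from INSL3. FTL rose with INSL3, by 0.44 log2 units per doubling of INSL3 (SE 0.076, edgeR adjusted p = 0.00036), in a fit where 316 of 13441 genes (2.35%) passed, 296 of them upward. Low AS control replicate 7, a numbered library, had both the lowest INSL3, 67.8 CPM, and the lowest FTL, 456 CPM. Low AS control replicate 5, a plain library, had the highest INSL3, 2626 CPM, with 1586 CPM of FTL. INSL3 was 442 ± 256 CPM in numbered libraries (SD, n = 8) and 1104 ± 626 CPM in plain ones (n = 24). The contrast of these 2 pigs therefore includes the library set, which the fit holds as a term. High AS control replicate 3 lay off the trend, with 1415 CPM of FTL at 393 CPM of INSL3, and this is the pig with ALB at 1731 CPM. In bulk tissue, fewer cells of a type and less RNA in each cell cannot be told apart.

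The FTL slope on INSL3 was called in each of 31 fits that left out 1 pig (0.41 to 0.47), and was 0.43 (SE 0.07) without High AS control replicate 3. It was 0.50 (SE 0.08, adjusted p = 0.00057) in the 23 plain libraries and 0.37 (SE 0.16, edgeR adjusted p = 1.000) in the 8 numbered ones. With CYP17A1 in place of INSL3 it was 0.40 (SE 0.09, adjusted p = 0.0055), and with PRM1 in the same model 0.43 (SE 0.07). Slopes were 0.45 (SE 0.13) among High AS pigs and 0.46 (SE 0.11) among Low AS pigs, and the test of their difference gave 0.061 (SE 0.13, edgeR adjusted p = 1.000, 95% interval -0.20 to 0.32). In that test of slopes 0 of 13770 genes passed in edgeR (0%), with 169 at an unadjusted p under 0.05, and of the other iron genes 0 of 28 passed, with a median of -0.0037 against 0.0068 over all genes. HERC2 had 0.28 (SE 0.17) and FLVCR2 0.24 (SE 0.15), while ceruloplasmin, CP, had -1.87 (SE 0.69) and TF -1.61 (SE 0.75). Both of these had their highest level in High AS control replicate 3, and without that pig TF had 0.30 (SE 0.30) and CP did not pass the filter on low counts. Slopes were 0.33 (SE 0.11) on the control diet and 0.59 (SE 0.10) on chicory, whose difference was not tested.

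No other member passed against INSL3. NCOA4 had 0.19 (SE 0.07, edgeR adjusted p = 0.153), ACO1 0.18 (SE 0.08, adjusted p = 0.224), TFRC 0.087 (SE 0.12, adjusted p = 0.705) and FTMT -0.069 (SE 0.11, adjusted p = 0.729). Their slopes differed between the AS groups by 0.059 (SE 0.13) for NCOA4, 0.17 (SE 0.14) for ACO1, 0.16 (SE 0.21) for TFRC and 0.093 (SE 0.18) for FTMT. Whether FTL moved apart from NCOA4 and TFRC along INSL3 was tested with the ratios below, and neither passed. The FTL to NCOA4 ratio had r = 0.38 with INSL3 (permutation p = 0.0418, adjusted 0.207). FTL to TFRC had r = 0.36 (permutation p = 0.0678, adjusted 0.207). Whether the FTL slope differs from those of ACO1 and FTMT was not tested.

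Among the other iron genes 3 of 27 rose with INSL3 (11.1%, beside 2.35% of all genes called in either direction) and 0 fell. Their median slope was 0.083 against 0.021 over all genes. They were the biliverdin reductases BLVRA (0.48, SE 0.09, edgeR adjusted p = 0.0022) and BLVRB (0.44, SE 0.12, adjusted p = 0.0407), enzymes of haem breakdown, and GLRX5 (0.32, SE 0.09, adjusted p = 0.0437). The call for BLVRA held in 31 of 31 fits without 1 pig, that for BLVRB in 16 and that for GLRX5 in 13. TFR2, the second transferrin receptor, had -0.18 (SE 0.15) and HERC2, a ubiquitin ligase that targets NCOA4, -0.088 (SE 0.10). Of the Leydig cell markers other than INSL3, 4 of 6 rose (CYB5A, LHCGR, CYP17A1 and CYP11A1), as did 1 of 3 macrophage markers, the complement gene C1QA. The 7 Leydig markers with an identifier summed to 886 to 8288 CPM in Low AS control pigs, 1373 to 4696 in Low AS chicory pigs, 1960 to 7614 in High AS control pigs and 1257 to 6243 in High AS chicory pigs. The macrophage markers summed to 26.8 to 53.9, 33.4 to 81.4, 29.3 to 82.7 and 28.5 to 67.6 CPM in the same order, and none of these markers was at 0 in all libraries. The part of macrophages in the FTL slope was not tested.

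**Figure D3:**
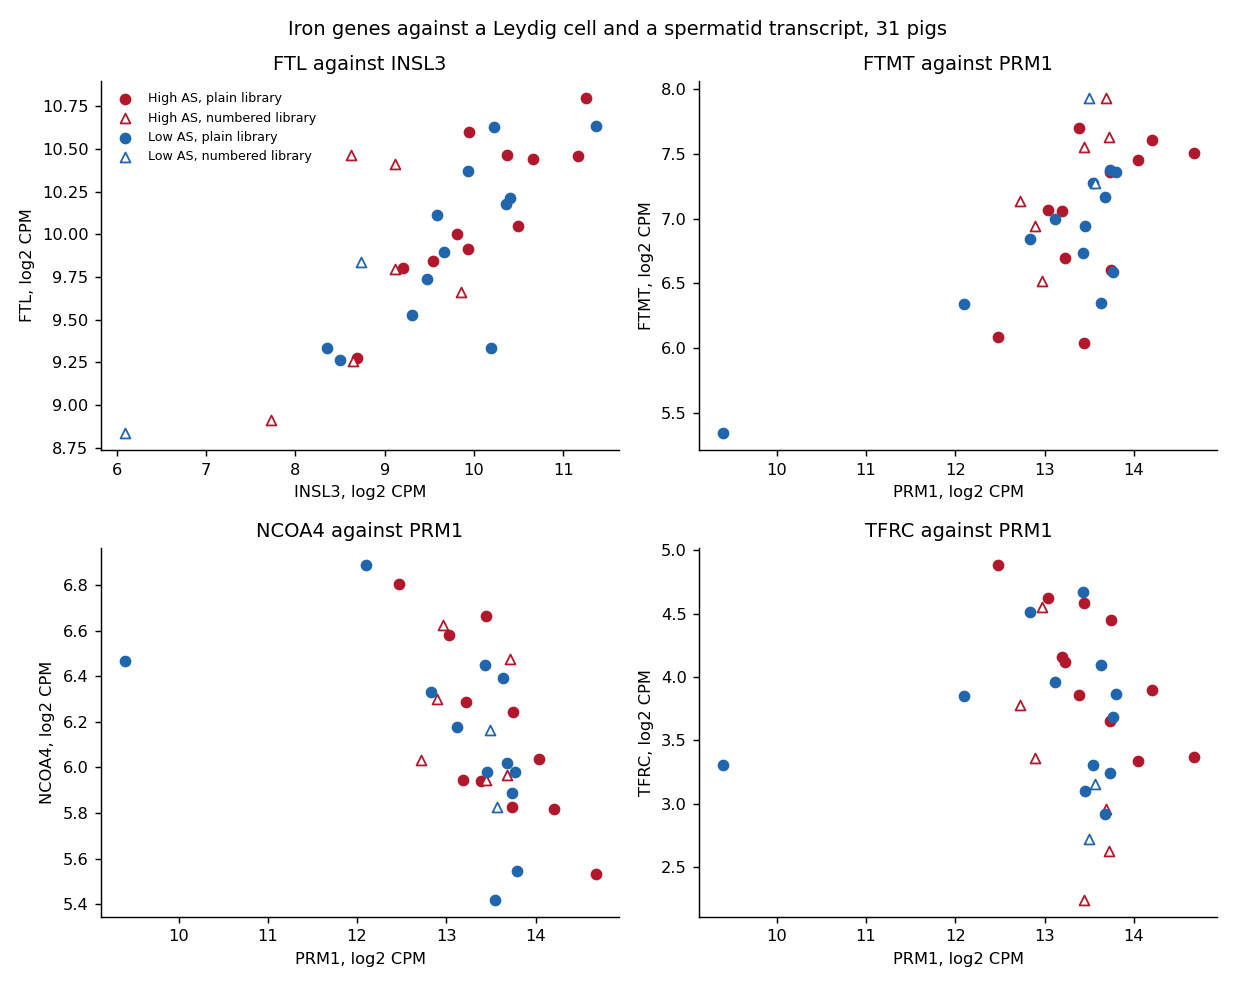
Log2 CPM of FTL against INSL3 and of FTMT, NCOA4 and TFRC against PRM1 in 31 pigs; red points are High AS pigs, blue points Low AS pigs, circles plain libraries and open triangles numbered libraries. FTL climbs with INSL3, FTMT climbs and NCOA4 falls with PRM1, and 1 Low AS pig, with 674 CPM of PRM1, lies far to the left in the PRM1 panels.

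Against PRM1, the measure of spermatid content, the members parted. FTMT rose by 0.45 log2 units per doubling of PRM1 (SE 0.083, edgeR adjusted p = 5.64e-05), NCOA4 fell by 0.23 (SE 0.07, adjusted p = 0.0077), and FTL had -0.069 (SE 0.09, adjusted p = 0.543, 95% interval -0.24 to 0.10). TFRC had -0.19 (SE 0.15, adjusted p = 0.312) and ACO1 -0.11 (SE 0.08, adjusted p = 0.269). These 2 calls of 5 members stand beside 6049 of 13770 genes called (43.9%), 2966 up and 3083 down, so a call against PRM1 was common in this tissue.

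Single pigs showed these opposite directions. High AS control replicate 9, with 5692 CPM of PRM1, had 67.6 CPM of FTMT and 111 CPM of NCOA4, while High AS chicory replicate 7, with 26120 CPM of PRM1, had 181 CPM of FTMT and 46.0 CPM of NCOA4. The FTMT call held in 31 of 31 fits without 1 pig (0.43 to 0.59), and so did that of NCOA4 (-0.50 to -0.20). Low AS chicory replicate 1 made the slopes of FTMT, NCOA4 and TFRC shallower. Without it the edgeR slope was 0.59 (SE 0.13, adjusted p = 0.0018) for FTMT and -0.50 (SE 0.11, adjusted p = 0.00095) for NCOA4. In the same fit it was -0.69 (SE 0.20, adjusted p = 0.0124) for TFRC and 0.15 (SE 0.17, adjusted p = 0.550) for FTL. That fit called 3131 genes, so a call remained common. Among the 31 fits that left out 1 pig, TFRC passed in the fit without that pig and in no other. In the 8 numbered libraries FTMT had 1.04 (SE 0.35) and NCOA4 -0.12 (SE 0.29), with 0 genes called of 14971 and 1931 at an unadjusted p under 0.05; in the 23 plain ones FTMT had 0.42 (SE 0.08) and NCOA4 -0.24 (SE 0.07).

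TFRC was the 1 member whose PRM1 slope differed between AS groups, by -0.90 (High AS minus Low AS, SE 0.28, edgeR adjusted p = 0.0389), where 1228 of 13770 genes (8.92%) passed. This test of slopes between AS groups was not among the planned comparisons. Fitted alone, the 17 High AS pigs gave a slope of -0.83 (SE 0.23, adjusted p = 0.0204) and the 14 Low AS pigs 0.041 (SE 0.15). Without Low AS chicory replicate 1 the difference was -0.52 (SE 0.40, adjusted p = 0.508) and 4 of 13659 genes passed. For FTL the slopes were 0.47 (SE 0.21) in High AS and -0.21 (SE 0.09) in Low AS pigs, with a difference of 0.62 (SE 0.24, adjusted p = 0.0898), or 0.67 (SE 0.32, adjusted p = 0.261) without that pig. FTMT had a difference of 0.28 (SE 0.20), NCOA4 -0.28 (SE 0.17) and ACO1 -0.092 (SE 0.21). Of the other iron genes 3 of 28 passed in this comparison, ISCU (0.58, SE 0.14) and GLRX5 (0.68, SE 0.22) upward and HERC2 (-0.86, SE 0.26) downward, which is 10.7% of them beside the 8.92% of all genes. Without Low AS chicory replicate 1 none of the 3 passed, with 0.38 for ISCU (edgeR adjusted p = 0.337), 0.85 for GLRX5 (adjusted p = 0.146) and -0.89 for HERC2 (adjusted p = 0.206).

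Of the other iron genes 11 of 28 passed against PRM1 (39.3%, beside 43.9% of all genes), 2 up and 9 down. Over all genes, calls up and down were near equal in number. Slopes were positive for 11 of the 28 and for 47.2% of all genes, with a median of -0.11 against -0.021 over all genes. HMOX2, the constitutive haem oxygenase, rose by 0.30 (SE 0.037, edgeR adjusted p = 1.12e-07) and FLVCR2 by 0.26 (SE 0.08). FBXL5 fell by 0.33 (SE 0.05) and CDC42BPA, a kinase whose messenger carries an iron-responsive element, by 0.31 (SE 0.07). The ferric reductase CYBRD1 fell by 0.38 (SE 0.10), the haem exporter FLVCR1 by 0.44 (SE 0.12) and the lysosomal channel MCOLN1 by 0.27 (SE 0.09). BLVRA, GLRX5 and NEO1, named after their values were seen, also fell. Without Low AS chicory replicate 1 the calls for CDC42BPA, FLVCR1, MCOLN1, BLVRA, GLRX5 and NEO1 were lost, with slopes of -0.29, -0.40, -0.17, -0.18, -0.056 and -0.078 in that order. HMOX2, FLVCR2, FBXL5 and CYBRD1 still passed, in a fit that called 3131 genes. All 9 elongating spermatid markers tested rose with PRM1, beside 43.9% of all genes called in either direction. Those that fell were 3 of 7 Leydig, 3 of 5 Sertoli, 3 of 3 spermatogonial and 1 of 4 endothelial markers. These marker counts include Low AS chicory replicate 1, where spermatogonial KIT had 67.6 CPM against at most 23.6 elsewhere, and are not given without it. The part of those cell types in the NCOA4 slope was not tested.

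**Figure D4:**
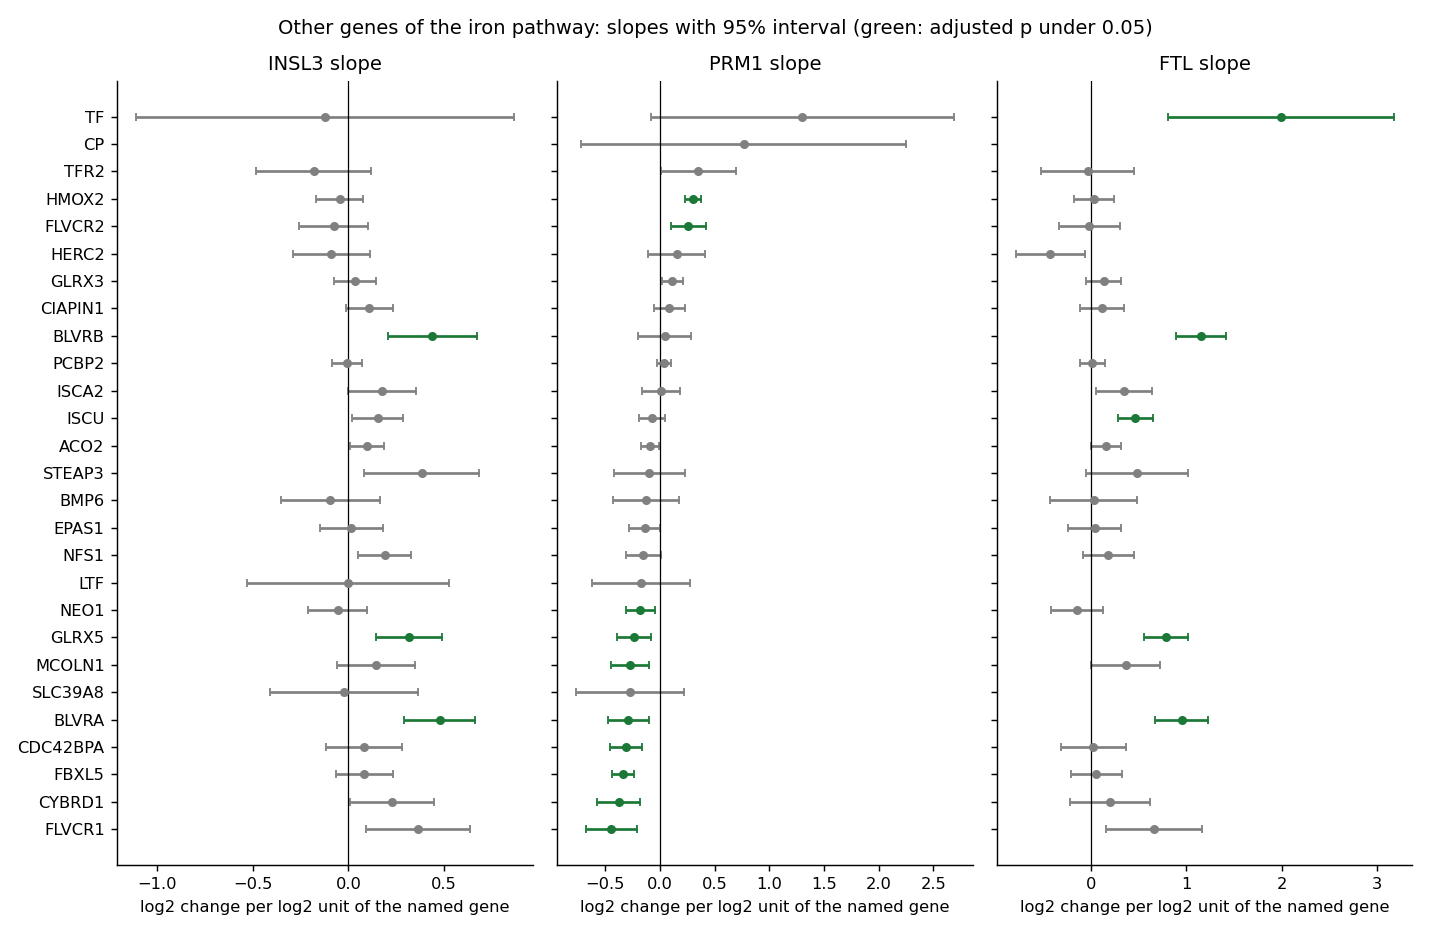
Slopes of the other iron pathway genes (y axis) on INSL3, PRM1 and FTL (x axis, log2 change per log2 unit of the named gene, with 95% intervals); green points have an adjusted p under 0.05 and a missing point was not tested. BLVRA, BLVRB and GLRX5 are positive for INSL3 and FTL, and FLVCR1 has the lowest slope on PRM1 among the called genes shown.

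With FTL itself as the measure, ACO1 was the 1 member that rose, by 0.39 per doubling of FTL (SE 0.13, edgeR adjusted p = 0.0406), where 1976 of 13198 genes (15%) passed, 1208 up and 768 down. This slope shares all 31 pigs and the FTL values with the INSL3 slope above. The call held in 20 of 31 fits without 1 pig and was lost without High AS control replicate 3, 5 or 10, High AS chicory replicate 1, 2, 4 or 6, Low AS control replicate 2 or 7, or Low AS chicory replicate 1 or 5, with adjusted p of up to 0.102. Within the plain set it was 0.29 (SE 0.17, adjusted p = 0.325) and within the numbered set 0.55 (SE 0.19, adjusted p = 0.217), with no filter on low counts the adjusted p was 0.0675, and by DESeq2 it was 0.0285. NCOA4 had 0.14 (SE 0.14), FTMT 0.10 (SE 0.18) and TFRC -0.40 (SE 0.22, adjusted p = 0.218). In an unplanned fit with INSL3 and PRM1 in the model TFRC had -1.06 (SE 0.28, adjusted p = 0.0110), where 929 genes rose and 1015 fell. TFRC had -0.996 (SE 0.31, adjusted p = 0.0519) when High AS control replicate 3 was also left out. INSL3 had a slope of 1.24 on FTL (SE 0.22, adjusted p = 0.00026) and CYP17A1 1.10 (SE 0.23, adjusted p = 0.0015), while PRM1 had 0.045 (SE 0.25).

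Among the other iron genes 5 of 25 rose with FTL (20%, beside 15% of all genes called in either direction) and 0 fell, with a median slope of 0.14 against 0.017 over all genes. BLVRB rose by 1.15 (SE 0.13, edgeR adjusted p = 7.26e-07), BLVRA by 0.95 (SE 0.14), GLRX5 by 0.79 (SE 0.12) and ISCU by 0.46 (SE 0.09), and each was called in 31 of 31 fits without 1 pig. TF had 1.99 (SE 0.60, adjusted p = 0.0233) with all 31 pigs, 0.060 (SE 0.29, adjusted p = 0.925) without High AS control replicate 3 and -0.15 in plain libraries. That call was also lost without High AS chicory replicate 6 or Low AS control replicate 7, and with DESeq2. HERC2 had -0.43 (SE 0.18) and NEO1 -0.15 (SE 0.14). Of the Leydig markers 6 of 7 rose with FTL, of the macrophage markers 1 of 3 (C1QA, at 0.98 to 22.8 CPM) and of the Sertoli markers 1 of 5 (SOX9). C1QA was the only macrophage marker of the 3 with a positive slope, and their median was -0.073. Slopes were positive for 3 of 5 Sertoli markers, with a median of 0.049. Of the 2 liver markers ALB passed, and it had 1731 CPM in High AS control replicate 3 against at most 65.6 elsewhere. None of the 10 elongating spermatid markers passed and 1 of 4 spermatocyte markers, SYCP2, fell. The part of these cell types in the slopes on FTL was not tested.

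The ratio of FTL to another member in the same library shows whether they moved apart. FTL to NCOA4, set in place of the ratio to FTH1, was 15.6 ± 6.61 over the 17 High AS pigs (SD) and 14.4 ± 5.67 over the 14 Low AS pigs, and FTL to TFRC was 97.3 ± 79.3 and 89.7 ± 44.0. Over 10 permutation tests, 2-sided and centred within library set, no Pearson correlation passed after adjustment. The FTL to NCOA4 ratio had r = 0.40 with androstenone (permutation p = 0.0265, adjusted 0.207; rho = 0.38, permutation p = 0.0424, adjusted 0.110) and r = 0.38 with INSL3 (permutation p = 0.0418, adjusted 0.207; rho = 0.38, permutation p = 0.0375, adjusted 0.110). Without the 2 pigs farthest from the median these were r = 0.35 (permutation p = 0.0686, adjusted 0.137) and r = 0.30 (permutation p = 0.120, adjusted 0.180). With PRM1 it had r = 0.23 (permutation p = 0.217, adjusted 0.433) but rho = 0.54 (permutation p = 0.0025, adjusted 0.0245), and r = 0.60 (permutation p = 0.00054, adjusted 0.0016) without the 2 pigs farthest from the median of PRM1. In the 23 plain libraries r was 0.19 and rho 0.54, and in the 8 numbered ones r was 0.67 (exact permutation p = 0.0815) and rho 0.67. The FTL to TFRC ratio had r = 0.031 with PRM1 (permutation p = 0.858; rho = 0.36, permutation p = 0.0440, adjusted 0.110) and r = 0.59 (permutation p = 0.00052, adjusted 0.0016) without the 2 farthest. Pearson correlations of both ratios with AS group and diet had adjusted p of 0.620 or more.

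The 6 named genes whose pattern over the 31 pigs was most like that of FTL, by Pearson's r of library-set-centred log2 CPM among 8800 genes with a symbol, were DDX56 (0.95), PRDX2 (0.91), DNASE1L2 (0.90), PCBD1 (0.88), CHCHD2 (0.88) and ANXA2 (0.86). DDX56 encodes an RNA helicase of the nucleolus, PRDX2 a peroxiredoxin, DNASE1L2 a deoxyribonuclease, PCBD1 a pterin dehydratase, CHCHD2 a mitochondrial protein and ANXA2 an annexin. For FTMT, by the same measure, they were SOX5 (0.94), ODAD4 (0.94), LYZL6 (0.93), LRRC46 (0.93), TEKTL1 (0.93) and PPIL6 (0.93), where SOX5 is a transcription factor of spermatids, ODAD4 docks the dynein arms of cilia and LYZL6 is a sperm lysozyme.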

How the data were processed

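Testis messenger RNA of 32 pigs was sequenced, with Qiagen RNA extraction and TruSeq stranded libraries per the labels' protocols. The authors deposited raw read counts per Ensembl gene, 1 file per pig, and the submitters' processing notes list HTSeq 0.6.0, STAR, SAMtools 1.3.1, Trimmomatic 0.33 and cutadapt 1.8.1. The genome build, annotation release and strand setting are not given in the sources used here. Reads of overlapping or antisense genes therefore cannot be told apart, and no coordinates are printed. Rows for reads in no gene (37.4% to 50.7% of a library) were left out. Symbols came from an Ensembl table that named 11804 of 25322 identifiers.

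The main tests were edgeR 4.0.16 quasi-likelihood fits in R 4.3.3 over all genes passing filterByExpr, with TMM scaling, library set as a term, and Benjamini-Hochberg adjusted p under 0.05 as a call. The 31 pigs with an AS group entered. Slopes are per log2 unit of a gene's log2 CPM (prior count 2) or of androstenone plus 0.5 mg/kg. Ratios (CPM plus 0.5) were tested with 100000 permutations within library set. FTL to FTH1 was replaced by FTL to NCOA4, the first listed alternative that passed the filter. Each sample is a pig. Litters were shared (14 sows), and p-values measure the spread between these pigs. No fit of the interaction or of the slopes on INSL3, PRM1 or FTL had a term for sow, so littermates enter them as independent. No 2 libraries of a group agreed within sampling noise (smallest chi-square per degree of freedom 7.24 in 108 pairs).

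On simulated counts for High minus Low AS, 17.4% of genes changed by log2 0.5, 87.7% changed by 1 and 100% changed by 2 were recovered (195, 195 and 193 changed genes tested among 12834, 12814 and 12821); for the INSL3 slope 13.7% at 0.25 and 79.5% at 0.5 (197 of 13253 and 200 of 13227). Alternatives were DESeq2 1.42.0, no low-count filter, no library set term, each library set alone, left-out pigs and other scalings of the measures. For AS, diet and androstenone only, they also included lane 6 libraries alone (added after seeing the data) and carcass weight (29 pigs). In those comparisons sow was also fitted as a block or, with limma 3.58.1, as a random effect. Not planned were the fits of numbered libraries alone and the tests of INSL3 and PRM1 slopes between AS groups. Also unplanned were the slopes on those genes within 1 AS group or diet, and FTL slopes with both as covariates. So were slopes on INSL3, PRM1 or FTL with single pigs left out. Named pathway genes were, per comparison, those called up to the 6 smallest p in each direction, or else the 2 smallest in each; genes like FTL were the 6 of highest r, and the same for FTMT was added afterwards. One gene of the pathway list entered the counts and medians but is not reported here. The members and lists were chosen with earlier results of these data known.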

Additional observations from a re-analysis of the deposited data

Results flagged for a closer look

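High AS control replicate 3 had an FTL to TFRC ratio of 321.4, far above the other 9 pigs of its group. Its FTL was 1415 CPM and its TFRC 4.40 CPM, the lowest of all 32 pigs, and its ALB was 1731 CPM. The check looked for a sample distant from the rest in 28 sets of values (5 members and 2 ratios in 4 groups). It found 1, which is no more than the rate of about 1 set in 20 that chance gives.

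The slope of TFRC on PRM1 differed between AS groups by -0.90 (SE 0.28, edgeR adjusted p = 0.0389), in an unplanned test of an interaction term over 31 pigs. The difference was -0.52 (SE 0.40, adjusted p = 0.508) without Low AS chicory replicate 1, which had 674 CPM of PRM1 and 9.58 CPM of TFRC.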

How the results depend on the processing

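Replicate numbers follow accession order and pair no pigs, so no analysis was paired by them. Litters did link the AS groups, with pigs of both in 7 of 14 sows. Sow as a fixed block, a comparison within litters, gave 0 called genes for AS (418 at an unadjusted p under 0.05) and an FTL difference of 0.23 (SE 0.17). Under settings other than leaving out a pig, 358 of 417 member values kept direction and side of the threshold, 41 changed sign, 15 lost a call and 3 gained one. In the edgeR fits of the numbered libraries alone, with 8 pigs, the FTL slope on INSL3 was 0.37 and not called, and it was also not called in High AS (0.45), Low AS (0.46) or control diet pigs alone (0.33); fewer pigs entered these fits. TFRC is limited by depth, at 20 to 355 counts.

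Counts of called genes moved as follows. For androstenone they were 7 with DESeq2, 9 with no filter, and 0 with no library set term, numbered libraries, carcass weight, sow as a fixed block or ranks (unadjusted p under 0.05 in 1356, 368, 429, 291 and 643 genes), and 1 to 4 over single pigs left out. For diet they were 0 with no library set term, either library set alone, lane 6 libraries only, sow as a random effect or all 32 pigs, and 0 to 1 over single pigs. For the interaction there was 1 with no filter. For INSL3 they were 487 with DESeq2 (397 up, 90 down), 2973 with no library set term (1679 up, 1294 down), 773 in plain libraries (638 up, 135 down), 7 in numbered ones, 192 with CYP17A1, 47 in High AS, 133 in Low AS (83 up, 50 down), 35 in control diet and 155 in chicory pigs (129 up, 26 down), and 174 (without Low AS control replicate 5) to 535 (without Low AS control replicate 7) over single pigs, with 191 without Low AS chicory replicate 5. For PRM1 they were 0 in numbered libraries, 3175 without both libraries that stood apart, 1953 in High AS pigs (1228 up, 725 down), 2495 in control diet pigs, and 3131 (without Low AS chicory replicate 1) to 6341 over single pigs. For FTL they were 807 in plain libraries (655 up, 152 down), 4 in numbered ones, 782 without both libraries, 786 with INSL3 and PRM1 as covariates and without High AS control replicate 3 (364 up, 422 down), and 1131 (without that pig) to 2291 over single pigs, with 1298 without High AS chicory replicate 6. With those covariates and all pigs 929 rose and 1015 fell. The difference of PRM1 slopes had 4 without Low AS chicory replicate 1.

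Values that changed sign were these, and the FTL slope of TF and the PRM1 slope of MCOLN1 were called among them in all 31 pigs. With no library set term the FTL slope of FTMT was -0.011, and within chicory the AS difference was -0.024 for FTL and -0.17 for TFRC. In numbered libraries the AS difference was -0.20 for FTMT and -0.071 for FLVCR2, the androstenone slope 0.0031 for NCOA4 and 0.080 for ACO1, the diet difference 0.065 for NCOA4 and -0.089 for ISCU, the INSL3 slope 0.025 for FTMT and 0.093 for TFR2, the PRM1 slope 0.98 for FTL, 0.84 for ACO1 and 0.14 for MCOLN1, and the FTL to TFRC ratio had r = 0.040 with AS group and -0.14 with diet. In plain libraries the AS difference was -0.036 for NCOA4 and 0.015 for ACO1 (0.013 for FTMT within the control diet), the INSL3 slope of TFRC -0.0020, the FTL slope of FTMT -0.026 and of TF -0.15, TF had 0.038 for diet and 0.48 for the interaction, and FTL to TFRC had r = -0.093 with PRM1. With carcass weight ACO1 had 0.050 for AS, 0.023 for androstenone and -0.0085 for diet. With sow as a fixed block the androstenone slope was 0.045 for TFRC, 0.036 for NCOA4 and -0.036 for FLVCR2, and the diet difference 0.060 for FTL, 0.0049 for TFRC and 0.19 for NCOA4; with sow as a random effect it was 0.0074 for NCOA4. In lane 6 libraries TFRC had 0.028 for androstenone and ACO1 -0.019 for diet. With ranked androstenone TFRC had 0.0033 and NCOA4 0.00030; without the 2 highest concentrations NCOA4 had 0.044 and ACO1 0.033. HERC2 had 0.012 with CYP17A1, and 0.089 in High AS and 0.055 in control diet pigs for INSL3. In High AS pigs the PRM1 slope was 0.47 for FTL and 0.084 for MCOLN1; in Low AS pigs TFRC had -0.15 for INSL3 and 0.041 for PRM1, and in chicory pigs -0.24 and 0.0040. Without both libraries that stood apart NCOA4 had 0.0039 for androstenone, and FTL 0.12 for the interaction and 0.12 for PRM1. With INSL3 and PRM1 as covariates FTMT had -0.011 for AS and NCOA4 -0.23 for FTL, and without High AS control replicate 3 as well NCOA4 had -0.23 and TF -0.62. The FTL to TFRC ratio had r = -0.0028 with diet at CPM plus 5 and -0.0030 without centring.

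The FTL to NCOA4 ratio passed with PRM1 by rho (0.54), without the 2 farthest pigs (r = 0.60) and without both libraries that stood apart (r = 0.56), and FTL to TFRC without the 2 farthest (r = 0.59). Leaving out single pigs gave -0.098 to 0.053 for ACO1, AS; -0.054 to 0.023 for NCOA4 and -0.055 to 0.024 for ACO1, androstenone; -0.16 to 0.00069 for FTL, -0.095 to 0.023 for NCOA4 and -0.016 to 0.10 for ACO1, diet; -0.038 to 0.17 for TFRC, INSL3; -0.11 to 0.15 for FTL, PRM1; -0.14 to 0.075 for FTMT, AS in control diet; and -0.054 to 0.29 for FTL, AS in chicory. The NCOA4 difference of PRM1 slopes was 0.12 without Low AS chicory replicate 1.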
